A study of Mus musculus with 6 samples.

Results

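The genes described are 52 listed cell cycle and DNA replication genes, which cover the copying of DNA in S phase, the entry into S phase (G1/S), mitosis, the D-type cyclins with their kinases, the inhibitors of cyclin-dependent kinases (CDKs) and the Myc family. A gene counted as found when its listed symbol equalled a row name in all 6 count files, and 51 of the 52 were found among 23337 symbols. Mycl had no row under that symbol, and RefSeq gives Mycl1 as an older symbol for it.

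RNA from the pancreas of 7-day-old mice of the strain NMRI was sequenced, with 3 control and 3 mutant libraries. Control mice had the genotype Ptf1a cre/+, in which Cre recombinase is made from the Ptf1a locus. Mutant mice carried the same Ptf1a cre/+ allele together with CAG-loxP-STOP-loxP-Prox1-LacZ, a transgene in which excision of the loxP-flanked STOP by Cre lets the CAG promoter drive Prox1 and LacZ in cells with a Ptf1a history. Both groups thus carried the Cre allele, and no library without Cre was analysed. The design text calls the control samples pools and the mutant samples single pancreata, while the extraction protocol names individual pancreata for all, so pooling and genotype cannot be told apart. No litter or collection day is given in the sources used here, and p-values measure the spread between these 6 libraries only. Values per library are CPM, counts scaled to a common library size, with TMM scaling, which limits the weight of a few very abundant genes. Differences are log2 fold changes of mutant over control with their standard error (SE), and a gene was called at an edgeR adjusted p under 0.05 over all 13017 genes tested.

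Prox1, a homeobox transcription factor and the product of the transgene, was at 10.8, 7.83 and 9.12 CPM in controls 1 to 3 and at 25.5, 31.3 and 30.9 CPM in mutants 1 to 3. All 3 mutant libraries lay above all 3 controls, as their labels state, and Prox1 rose by 1.67 ± 0.15 (SE, n = 3 per group) on the log2 scale (edgeR adjusted p = 0.000239). Total counts ranged from 7304727 to 10773223 over the 6 libraries, with TMM factors from 0.912 to 1.12. Acinar markers, which are the digestive enzyme genes of the labelled tissue and their transcription factors, were present in all libraries, with a summed level of 342479 to 378128 CPM in the controls, against 284877 to 343092 CPM in mutants. The gene Ddx3y on the Y chromosome, picked with its values known, was at 0 CPM in control 1 and between 45.8 and 58.9 CPM in the other 5 libraries. Control 1 thus held no reads of this gene of males, while any pooled library among the others could hold both sexes. Mutant 2 stood apart in the lymphocyte markers: their sum was 133 CPM there and between 8.77 and 37.9 CPM elsewhere, and all 12 of the 12 listed markers were highest in it. Control 2 had the highest sum of erythroid markers, 713 CPM against 112 to 298 CPM elsewhere.

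A cell enters the cycle when D-type cyclins with Cdk4 or Cdk6, followed by cyclin E with Cdk2, release E2F transcription factors from the retinoblastoma family. E2F factors then turn on the genes for the replication machinery. In G2 and M phase another set of genes builds the spindle and the kinetochore and ends the division. Their promoters often carry CCAAT boxes, bound by NF-Y, and cell cycle homology regions (CHR), bound by the MuvB complex with B-Myb and Foxm1. CDK inhibitors hold the kinases back, and Myc factors drive growth and cell cycle entry. In the first weeks after birth the mouse pancreas grows largely by division of its acinar cells. In whole tissue, fewer cycling cells and less RNA of a gene per cycling cell cannot be told apart.

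None of the 51 genes was called, against 2.06% of all genes tested (268 of 13017), made up of 0.545% higher and 1.51% lower in mutants. At an unadjusted p under 0.05, edgeR found 7 of the 51, DESeq2 4 and limma-voom 7, and neither DESeq2 nor limma-voom called any, against 2.58% and 2.07% of all genes. The 7 of edgeR were 6 higher in mutants, where 5.41% of all genes reached that level, and 1 lower, where 7.36% did. The median difference of the 51 was 0.05 on the log2 scale and that of all genes tested was 0.00. The roles differed in direction: 24 of the 25 mitotic genes had a positive difference with a median of 0.26, while 8 of the 10 replication genes had a negative one with a median of -0.10. The mitotic median was 0.14 without control 3, 0.16 without mutant 1 and 0.40 without control 2. The replication median was -0.07 and -0.04 without controls 1 and 2, -0.17 without control 3, -0.27 and -0.19 without mutants 1 and 3 and 0.12 without mutant 2. The G1/S regulators had a median of -0.10, the D cyclins and their kinases one of -0.13, the CDK inhibitors one of -0.06 and the Myc family one of -0.10. With library totals in place of TMM the median of all genes moved to 0.17, that of the mitotic genes to 0.42 and that of the replication genes to 0.05.

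**Figure D1:**
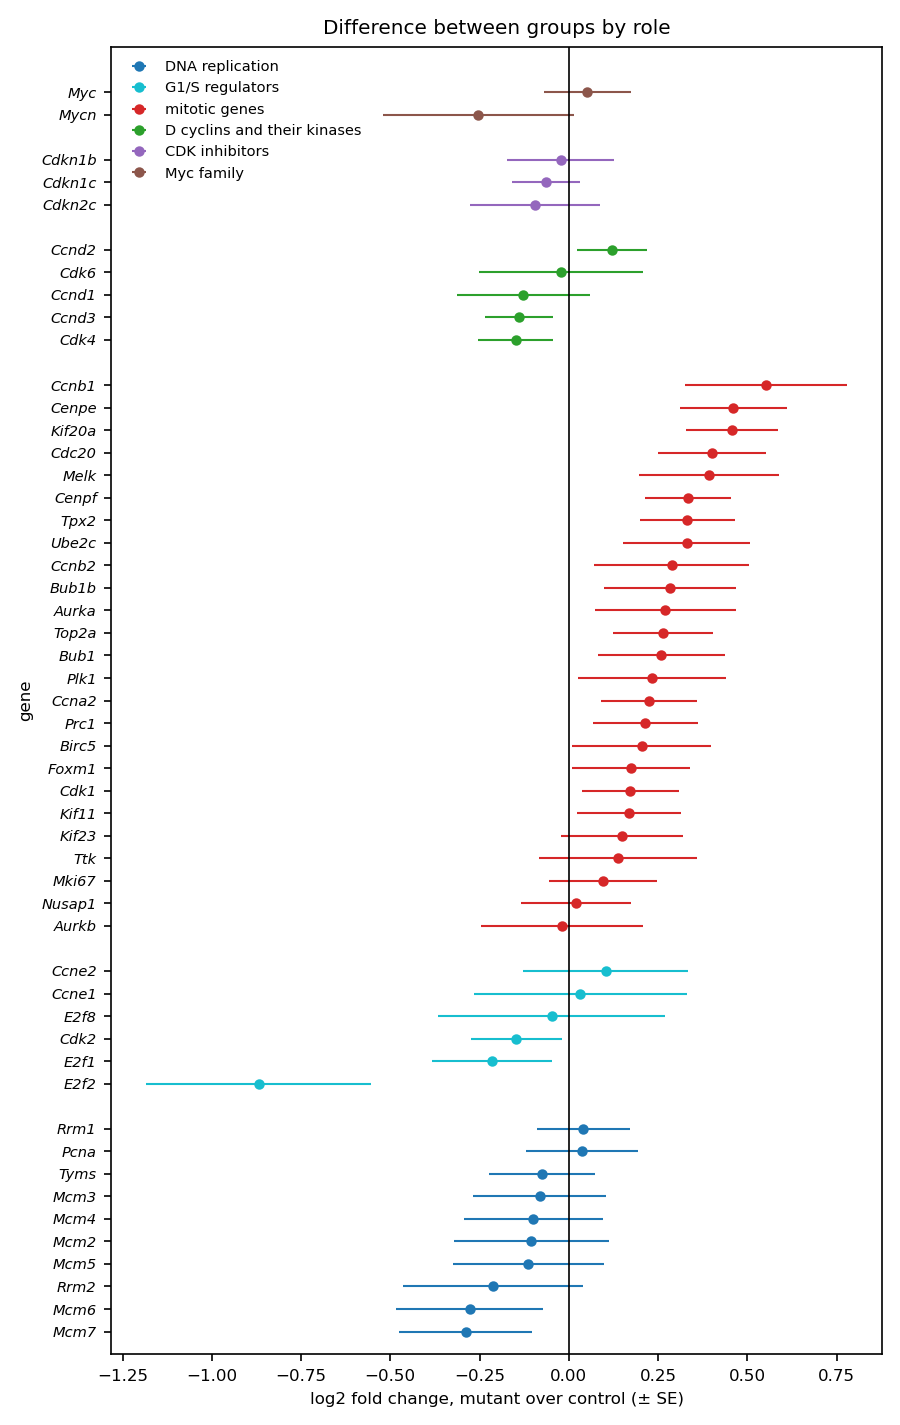
Log2 fold change of mutant over control (x axis) with its SE from edgeR for each of the 51 genes (y axis), coloured by role, with n = 3 libraries per group. The mitotic genes lie between -0.02 and 0.55 and the replication genes between -0.29 and 0.04, and no gene passed the adjusted threshold.

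The replication genes encode the Mcm2 to Mcm7 subunits of the helicase that opens the double helix, the sliding clamp Pcna, the ribonucleotide reductase subunits Rrm1 and Rrm2, which make deoxynucleotides, and thymidylate synthase, Tyms. Mcm2 to Mcm5, Pcna and Tyms fall outside the rule for named genes and were added, with their values known, to complete the group. Mcm7 was at 50.1, 54.6 and 50.4 CPM in the controls, against 50.2, 28.0 and 48.4 CPM in mutants. Mcm6 was at 96.5, 95.5 and 72.0 CPM in the controls, against 89.6, 48.2 and 79.2 CPM in mutants. In both genes mutant 2 was the lowest library and mutants 1 and 3 lay near or within the range of controls. Their differences were -0.29 ± 0.19 (SE) for Mcm7 and -0.28 ± 0.21 for Mcm6, with edgeR adjusted p of 0.590 and 0.653. Without mutant 2 they were -0.06 for Mcm7 and -0.05 for Mcm6. Reads of Mcm7 can be shared with Gm5487, which holds 18.1% of its 50-base stretches.

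The same library was the lowest of 6 in each of the other helicase genes. Mcm2 was at 47.7, 58.5 and 47.7 CPM in the controls, against 56.9, 29.3 and 56.5 CPM in mutants. Mcm3 was at 42.8, 45.8 and 35.6 CPM in the controls, against 47.3, 27.1 and 42.4 CPM in mutants. Apart from mutant 2, the mutant values of both genes lay near the control range. Mcm4 was at 48.8, 48.3 and 45.5 CPM in the controls, against 56.1, 29.0 and 47.5 CPM in mutants. Mcm5 was at 51.7, 48.3 and 43.6 CPM in the controls, against 54.6, 27.5 and 49.9 CPM in mutants. Mutant 2 held between 54.8% and 63.4% of the mean of the other 5 libraries in the 6 genes, which lie on chromosomes 1, 5, 6, 8 and 16. On the log2 scale mutant 2 lay between 0.65 and 0.86 below the other 5, where 112 of the 4684 genes with a mean of at least 20 CPM (2.39%) were as low as the highest of the 6.

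**Figure D2:**
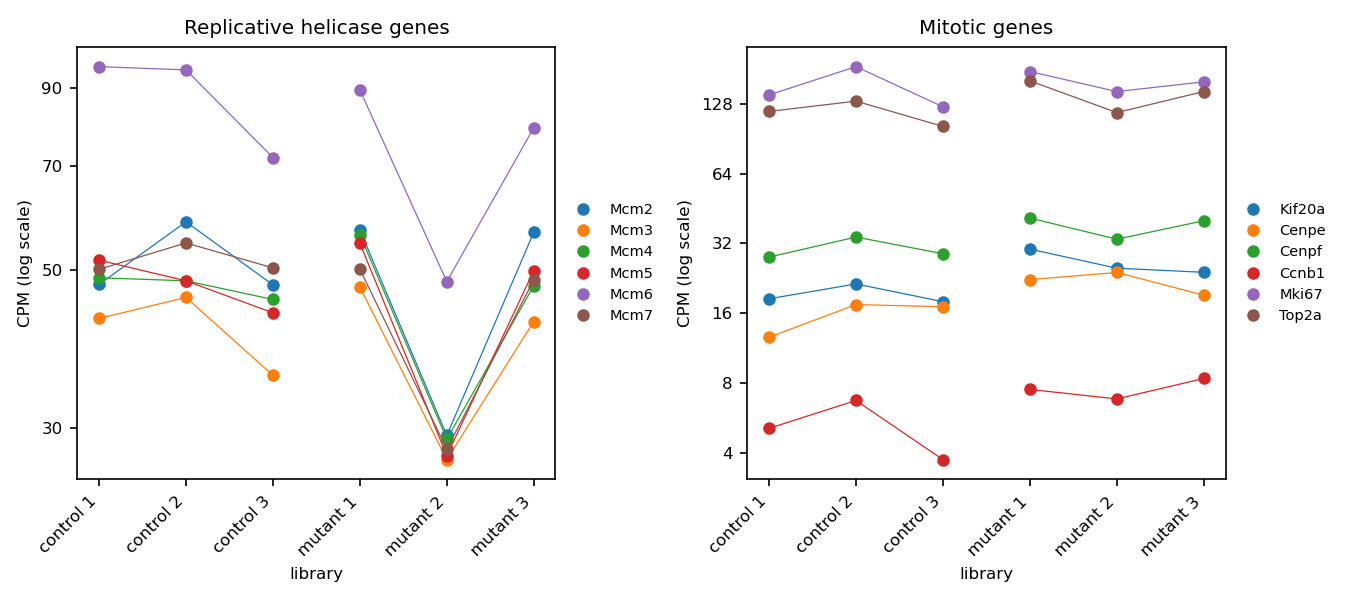
CPM on a log scale (y axis) in each library (x axis) for the 6 helicase genes on the left and 6 mitotic genes on the right, with lines joining the libraries of a group. The helicase genes of mutant 2 lie between 27.1 and 48.2 CPM and below all other libraries of the same gene, while its mitotic genes lie within or above the range of the other libraries.

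Rrm2 was at 33.3, 47.0 and 27.1 CPM in the controls, against 40.0, 19.8 and 32.4 CPM in mutants, again lowest in mutant 2 (-0.21 ± 0.25, edgeR adjusted p = 0.810). Rrm1 was at 74.0, 81.3 and 61.5 CPM in the controls, against 79.2, 64.3 and 79.2 CPM in mutants, and the groups overlapped (0.04 ± 0.13, edgeR adjusted p = 0.946). Tyms ranged from 28.0 to 32.3 CPM in controls and from 22.1 to 33.8 CPM in mutants, with its lowest value in mutant 2. Pcna ranged from 24.8 to 29.5 CPM in controls and from 23.4 to 35.1 CPM in mutants and was not lowest in mutant 2, and 19.1% of its 50-base stretches also occur in Pcna-ps2. In all, mutant 2 was the lowest library for 8 of the 10 replication genes, against 19.7% of all genes tested. Without mutant 2 the median of the 10 genes was 0.12 and only 2 of them had a negative difference.

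The promoters of the helicase genes are shown because these genes were low together in mutant 2. RefSeq promoters of 300 bases on GRCm38.p6, from 250 before to 50 after a start, were given for 40 of the 51 genes and for 9 of the 10 replication genes. They were searched on both strands for 4 forms of the E2F letters (TTCCCGC and with it TTGGCGC, then also TTCGCGC as well as TTGCCGC). They were also searched for CCAAT boxes, spelled CCAAT, which on the other strand can share the letters TTGG with the form TTGGCGC, and for CHR letters, either TTTGAA or else TTTAAA. E2F letters were found in 6 of 9 replication genes (66.7%), against 10.9% of all 27025 genes with such a promoter, and CCAAT in 8 of 9 (88.9%) against 41.1%. CHR letters were found in 3 of 9 (33.3%) against 30.6%. Of the 5 helicase genes with a promoter, 4 held E2F letters and Mcm2 held none, although it too was low in mutant 2. A link of these letters to the levels was not tested. A match is a description of letters and not a measured binding site. The 180 bases before the start are printed for Mcm5 (chr8:75109329-75109508, plus strand) and Mcm6 (chr1:128359706-128359885, minus strand), 2 examples chosen after the matches were seen. Capitals mark the E2F letters and CCAAT on either strand, and E2F matches on the 2 strands can overlap each other, as in TTGGCGCGAA of Mcm6.
Mcm5: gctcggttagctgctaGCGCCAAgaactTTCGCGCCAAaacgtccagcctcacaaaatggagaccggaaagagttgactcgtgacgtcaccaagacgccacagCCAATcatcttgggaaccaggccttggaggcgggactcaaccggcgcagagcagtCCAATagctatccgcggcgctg
Mcm6: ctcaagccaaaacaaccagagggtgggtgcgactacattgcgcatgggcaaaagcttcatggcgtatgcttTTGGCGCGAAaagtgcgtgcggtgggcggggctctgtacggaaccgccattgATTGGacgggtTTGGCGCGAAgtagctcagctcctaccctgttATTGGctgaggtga
Mcm5 held 3 E2F matches and 2 CCAAT boxes in this stretch, and Mcm6 held 4 and 2.

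Of 43 other replication genes, among them the origin recognition, polymerase, replication factor C and chromatin assembly genes, none was called by edgeR, 13 had a positive and 30 a negative difference, and the median was -0.08. Without mutant 2, 26 were positive and 17 negative with a median of 0.06, and with library totals as the scaling 27 were positive and 16 negative with a median of 0.09. At an unadjusted p under 0.05, 2 of the 43 were higher and 2 lower, shares near or below the 5.41% and 7.36% of all genes tested. Orc2, a subunit of the origin recognition complex, was at 11.9, 12.6 and 12.7 CPM in the controls, against 18.8, 16.1 and 16.1 CPM in mutants (0.46 ± 0.13, edgeR adjusted p = 0.115). Dbf4, the activator of the kinase that fires origins, was at 8.86, 12.5 and 10.1 CPM in the controls, against 17.1, 15.3 and 12.9 CPM in mutants (0.52 ± 0.17, edgeR adjusted p = 0.199). In both genes all mutants lay above all controls, and both missed the threshold, although Orc2 passed it with library totals as the scaling (0.62, edgeR adjusted p = 0.0424). Mutant 2 was the lowest library for 29 of the 43 (67.4%), and 40 of the 43 lay below the mean of the other 5 libraries, with a median of -0.50. Orc2 and Dbf4 were 2 of the 3 that did not, and Gins4, a subunit that binds the helicase, was the other. E2F letters were found in 21 of the 34 with a promoter (61.8%).

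The G1/S regulators gave a like order of libraries, with mutant 2 lowest in 4 of 6 genes, and their median was 0.06 without it. E2f2, an activating E2F factor, was at 7.06, 11.5 and 4.61 CPM in the controls, against 3.71, 4.98 and 3.99 CPM in mutants. It was highest in control 2, and mutant 2 lay above control 3, so that the groups overlapped. Its difference of -0.87 ± 0.31 had an unadjusted edgeR p of 0.0202 and an adjusted p of 0.267, and without control 2 it was -0.45 (edgeR adjusted p = 0.705). Erythroid markers were also highest in control 2 for 8 of the 10 listed genes with a row, with sums of 178 to 713 CPM in the controls, against 112 to 251 CPM in mutants, Hba-a1 and Hba-a2 being listed at 0. Their part in the E2f2 difference was not tested. E2f1 was at 11.9, 11.6 and 10.6 CPM in the controls, against 9.89, 7.65 and 11.6 CPM in mutants (-0.21 ± 0.17, edgeR adjusted p = 0.677). Without mutant 2 the difference of E2f1 was -0.07. Cdk2, the kinase partner of cyclin E, was at 30.2, 31.8 and 27.9 CPM in the controls, against 30.6, 22.6 and 27.7 CPM in mutants (-0.15 ± 0.13, edgeR adjusted p = 0.710). Both were lowest in mutant 2, with groups that overlapped. The cyclin E genes Ccne1 and Ccne2 and the repressor E2f8, the remaining members of this group, differed by -0.05 to 0.10 and were each lowest or near lowest in mutant 2. Ccne2 and E2f8 share 17.4% and 11.2% of their exon bases with the genes Ints8 and Gm2788 on the opposite strand.

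Mitotic genes mostly had a higher mean in the mutant group, by small amounts, and none was called. The libraries of a group were not alike. Of the 25 genes, 25, 2 and 24 lay below the mean of the other 5 libraries in controls 1 to 3. In mutants 1 to 3 the counts were 0, 17 and 2. Of the 25, 6 reached an unadjusted p under 0.05 with a positive difference and none with a negative one. In 4 genes all 3 mutants lay above all 3 controls, against 9.13% of all genes tested, and in none did all lie below, against 9.86%. Kif20a, a kinesin of the central spindle, was at 18.5, 21.4 and 17.9 CPM in the controls, against 30.2, 25.0 and 24.0 CPM in mutants. All mutants lay above all controls, and its difference of 0.46 ± 0.13 had the smallest p of the 51 genes (edgeR unadjusted p = 0.0053, adjusted p = 0.130). It was called with library totals as the scaling (0.62, edgeR adjusted p = 0.0466), under which the median of all genes was 0.17. Kif20a shares 29.3% of its exon bases with Cdc23 on the opposite strand, whose reads cannot be told apart without the strand setting. Cenpe, a kinetochore motor, was at 12.6, 17.4 and 17.1 CPM in the controls, against 22.3, 24.0 and 19.1 CPM in mutants (0.46 ± 0.15, edgeR adjusted p = 0.204), also without overlap. Cenpf, a protein of the kinetochore, was at 27.9, 34.1 and 28.9 CPM in the controls, against 41.2, 33.4 and 40.1 CPM in mutants, where mutant 2 lay below control 2 (0.33 ± 0.12, edgeR adjusted p = 0.267).

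The other genes whose groups did not overlap were Ccnb1 and Cdc20, named here after their values were seen. Ccnb1 encodes cyclin B1, the partner of Cdk1 at entry into mitosis, and was at 5.10, 6.73 and 3.74 CPM in the controls, against 7.51, 6.84 and 8.37 CPM in mutants (0.55 ± 0.23, edgeR adjusted p = 0.336). Cdc20, which activates the anaphase-promoting complex, was at 11, 14.9 and 12.4 CPM in the controls, against 19.0, 16.6 and 15.2 CPM in mutants (0.40 ± 0.15, edgeR adjusted p = 0.290). The gap between the groups was narrow in both, since control 2 lay close to the lowest mutant. Reads of both can be shared with pseudogene copies: 23.4% of the 50-base stretches of Ccnb1 also occur in Ccnb1-ps and 10.4% of those of Cdc20 in Gm7856.

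The most abundant mitotic genes differed less. Mki67, which encodes the proliferation antigen Ki-67 on mitotic chromosomes, was at 140, 185 and 124 CPM in the controls, against 176, 144 and 159 CPM in mutants. Control 2 was the highest library and the groups overlapped (0.10 ± 0.15, 95% interval -0.24 to 0.43, edgeR adjusted p = 0.867). The difference of Mki67 was 0.28 without control 2 and -0.02 without control 3. Top2a, the topoisomerase that untangles sister chromatids, was at 119, 131 and 102 CPM in the controls, against 161, 117 and 145 CPM in mutants (0.26 ± 0.14, 95% interval -0.05 to 0.57, edgeR adjusted p = 0.492). Its mutants 1 and 3 lay above all controls and mutant 2 below control 1. The remaining 18 of the 25 ranged from -0.02 for the kinase gene Aurkb to 0.39 for the kinase gene Melk, and the smallest edgeR adjusted p among them was 0.322, for the spindle assembly gene Tpx2.

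**Figure D3:**
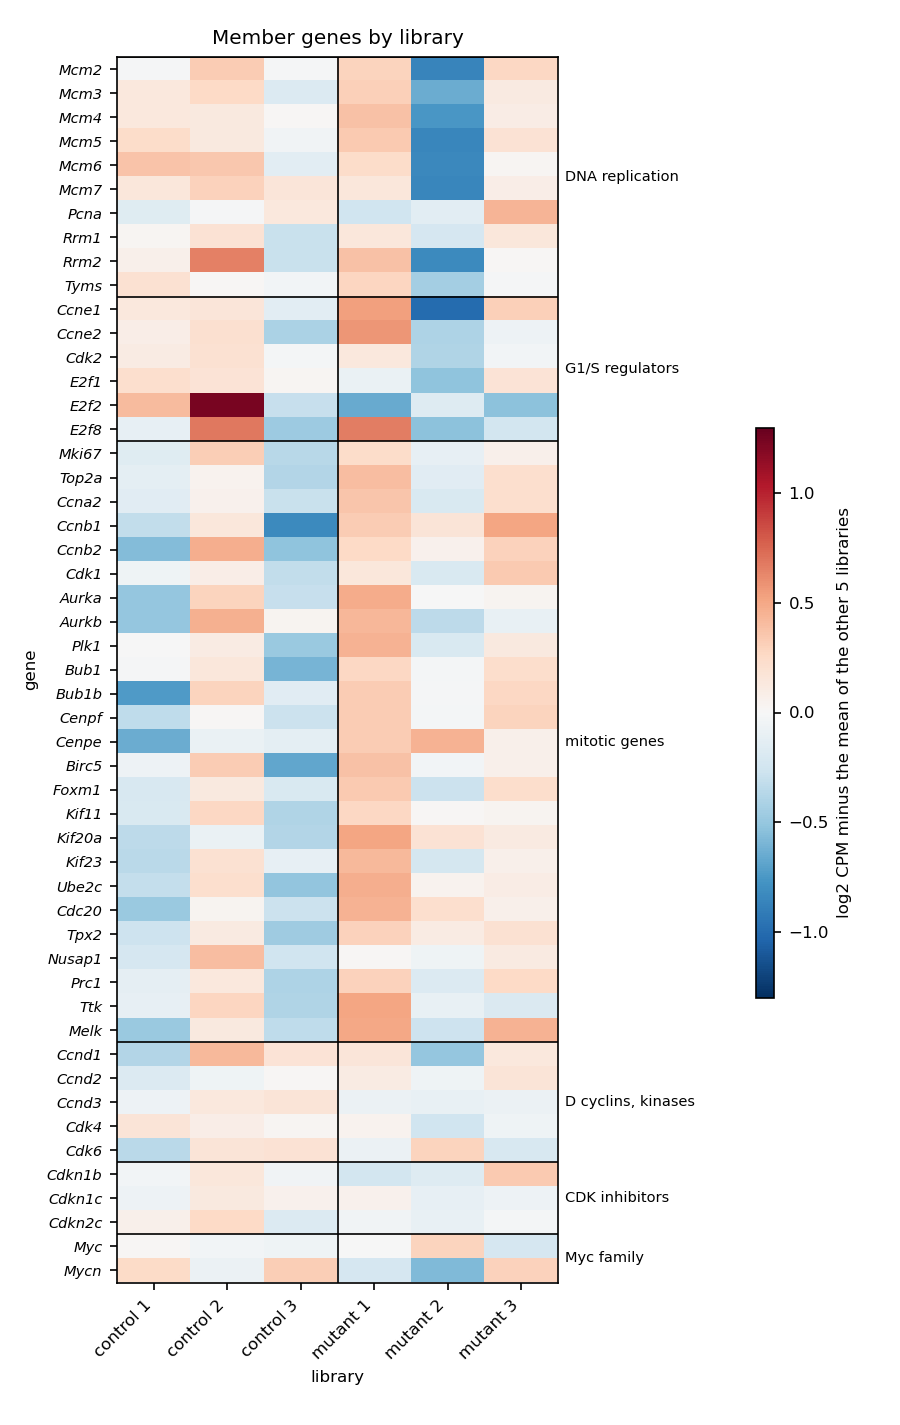
Each of the 51 genes (y axis) in each library (x axis), coloured by its log2 CPM minus the mean of the other 5 libraries, with lines between roles and between groups. Blue cells fill the replication rows of mutant 2, and mutant 1 has the highest value in 18 of the 25 mitotic rows, while 15 of the lowest values lie in control 3 and 9 in control 1.

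Promoters of 3 mitotic genes are shown for comparison with those of the helicase genes. CHR letters were found in 17 of the 20 mitotic genes with a promoter (85%), CCAAT in 17 of 20 and E2F letters in 3 of 20 (15%), against 30.6%, 41.1% and 10.9% of all genes. The 180 bases before the RefSeq start are those of Top2a (chr11:99024190-99024369, minus strand), Cdc20 (chr4:118437344-118437523, minus strand) and Kif11 (chr19:37376202-37376381, plus strand), again chosen after the matches were seen. Capitals mark CCAAT and the CHR letters on either strand.
Top2a: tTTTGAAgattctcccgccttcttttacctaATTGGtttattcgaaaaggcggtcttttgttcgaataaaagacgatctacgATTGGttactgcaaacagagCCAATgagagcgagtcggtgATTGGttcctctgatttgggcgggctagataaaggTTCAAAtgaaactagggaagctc
Cdc20: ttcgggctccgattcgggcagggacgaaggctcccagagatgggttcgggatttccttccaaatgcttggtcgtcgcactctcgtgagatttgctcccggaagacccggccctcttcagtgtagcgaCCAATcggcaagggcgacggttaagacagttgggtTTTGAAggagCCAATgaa
Kif11: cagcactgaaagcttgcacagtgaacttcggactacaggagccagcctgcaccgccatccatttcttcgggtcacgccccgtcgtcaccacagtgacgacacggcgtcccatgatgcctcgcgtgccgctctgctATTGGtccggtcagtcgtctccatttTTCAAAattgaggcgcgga
None of the 3 stretches held E2F letters, which says only that these letters are not in these windows. Top2a held 4 CCAAT boxes and 2 CHR matches, Cdc20 held 2 and 1, and Kif11, a kinesin that separates the spindle poles, held 1 of each.

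Of 73 other mitotic genes listed, 72 had a row and 71 were tested. Of these, edgeR called 1, Hmmr, and 57 had a positive and 14 a negative difference, with a median of 0.13. Hmmr, which encodes a spindle-associated receptor for hyaluronan, lies at chr11:40701395-40733422 on the minus strand of GRCm38. It was at 17.1, 20.4 and 17.4 CPM in the controls, against 27.7, 26.4 and 26.0 CPM in mutants, with no overlap and a spread within mutants of 0.860 CPM (SD, n = 3). It rose by 0.54 ± 0.11 on the log2 scale (edgeR adjusted p = 0.0363, limma-voom adjusted p = 0.0417), but missed the threshold with DESeq2 (adjusted p = 0.0559) and with any 1 of the 6 libraries left out (edgeR adjusted p from 0.0516 to 0.165). At an unadjusted p under 0.05, 7 of the 71 were higher and none lower, against 5.41% and 7.36% of all genes tested, and 1 called gene of 71 is no larger a share than the 2.06% of all genes. The median of the list was 0.07 without control 3, 0.06 without mutant 1, and 0.33 and 0.24 without control 2 and without mutant 2. CHR letters were found in 39 of the 56 with a promoter (69.6%).

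The order of the libraries differed between replication and mitotic genes. By the mean log2 CPM of the 25 mitotic genes the order was mutant 1 (4.67), control 2 (4.53), mutant 3 (4.51), mutant 2 (4.34), control 1 (4.13) and control 3 (4.07). By the 10 replication genes it was control 2 (5.65), mutant 1 (5.64), mutant 3 (5.57), control 1 (5.55), control 3 (5.40) and mutant 2 (4.92). Control 2 and mutant 1 were thus near the top of both orders and control 3 near the bottom of both. Mutant 2 lay 0.53 below the mean of the 6 libraries in replication genes and 0.04 below it in mitotic genes. In the other genes of the pathway it lay 0.39 below that mean in the 43 replication genes and 0.14 below it in the 71 mitotic genes. Of those 71, mutant 2 was the lowest library in 18 (25.4%), against 19.7% of all genes tested. The orders by the described genes depend on the scaling. With library totals the mitotic deviations from the mean of the 6 libraries were 0.37, 0.12 and 0.15 in mutants 1 to 3. They were -0.37, 0.08 and -0.35 in controls 1 to 3, so that all mutants lay above all controls. The replication deviation of mutant 2 was then -0.38, still the lowest of the 6. The 6 helicase genes summed to 338, 351 and 295 CPM in the controls, against 355, 189 and 324 CPM in mutants. The mitotic genes summed to 649, 821 and 602 CPM in the controls, against 894, 711 and 815 CPM in mutants. Mutant 2 had the lowest helicase sum, while its mitotic sum lay between those of controls 1 and 2.

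**Figure D4:**
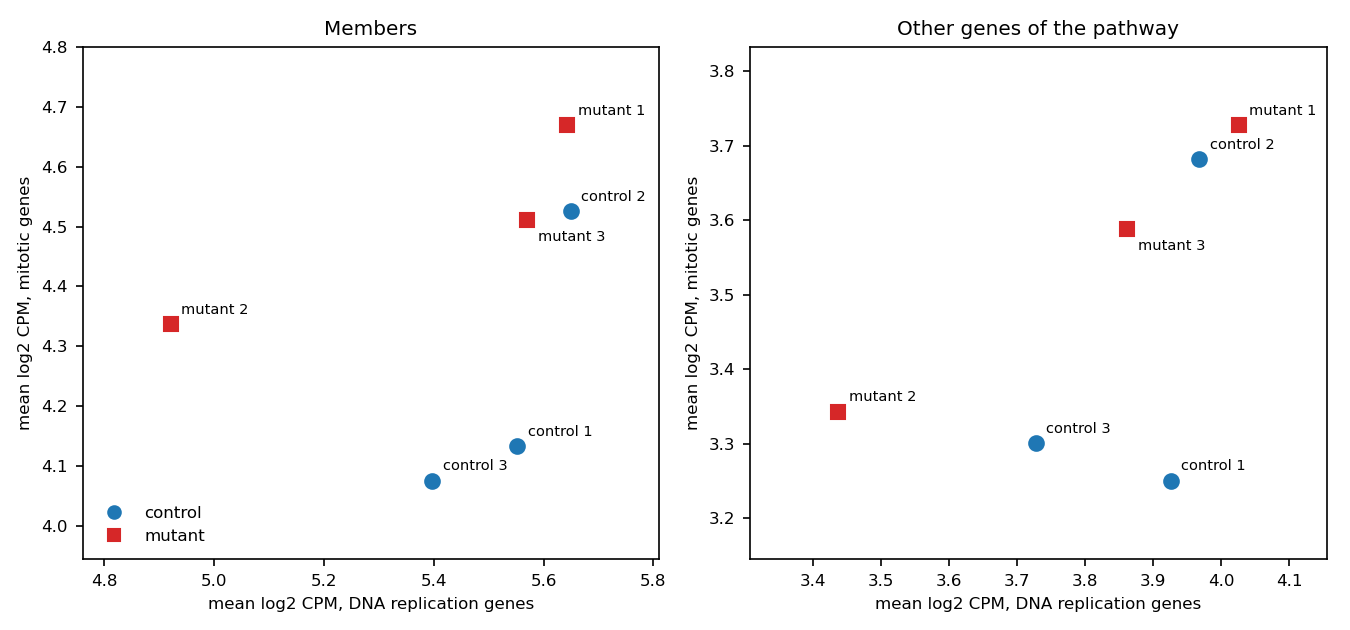
Mean log2 CPM of the replication genes (x axis) against that of the mitotic genes (y axis), 1 point per library, for the described genes on the left and the other listed genes of the pathway on the right. On the left control 2 and mutant 3 lie close together, controls 1 and 3 lie lowest on the y axis, and mutant 2 stands alone at 4.92 on the x axis.

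Replication genes minus mitotic genes, a difference of means within a library, was 1.42, 1.12 and 1.32 on the log2 scale in controls and 0.97, 0.58 and 1.06 in mutants. All 3 mutants lay below all 3 controls, and mutants were lower by 0.42 on average, which is a description without a test. In single genes, all mutants lay below all controls in 9.86% of those tested, and both lists were chosen with earlier results known. The gap between the nearest libraries, control 2 at 1.12 and mutant 3 at 1.06, was small. Mutants 1 and 3 also lay below all controls, and without mutant 2 the average was -0.27. With all libraries the average stayed at -0.42 under other scalings, but a scaling factor enters both means and nearly cancels. The scalings are therefore no check of this quantity. It lay between -0.42 and -0.38 with another prior count or without genes that share sequence or antisense exons. In the other genes of the pathway the same quantity was 0.68, 0.29 and 0.43 in controls and 0.30, 0.09 and 0.27 in mutants, where mutant 1 lay just above control 2 and the groups overlapped.

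Markers of other cell types differed between libraries, and some between the groups. Of all genes tested, 0.545% were called higher and 1.51% lower in mutants. In single genes, all mutants lay above all controls in 9.13% and below them in 9.86%. Lymphocyte markers summed to 9.91, 29.8 and 37.9 CPM in the controls, against 9.60, 133 and 8.77 CPM in mutants, and 0 of the 7 tested were called. Ptprc, the common leukocyte antigen, was at 56.9 CPM in mutant 2 and between 4.69 and 14.4 CPM elsewhere. Macrophage markers summed to 260, 317 and 314 CPM in the controls, against 364, 445 and 321 CPM in mutants, with all mutants above all controls. In mutant 2 the sum was highest, with 6 of the 12 markers highest there, and Lyz2 made up 139 CPM of it against 40.4 to 70.5 CPM in the other libraries. Of the 12 macrophage markers tested, C1qc and Mrc1 were called higher and C1qa lower. Adipocyte markers summed to 98.6, 190 and 247 CPM in the controls, against 48.9, 83.2 and 52.7 CPM in mutants, all mutants below all controls, and Fabp4 was the 1 called of 9 tested, lower in mutants. These markers were named with their values known. Duct markers summed to 631, 687 and 715 CPM in the controls, against 538, 428 and 601 CPM in mutants, with no overlap. Of the 8 tested, 0 were called. Cftr went the other way, with all mutants above all controls (0.78, edgeR adjusted p = 0.264), and Onecut1 had a small positive difference (0.06). The other duct markers had negative differences. Acinar markers were lowest in mutant 2, and Cel was the 1 called of 12 tested, lower in mutants (-0.93, edgeR adjusted p = 0.00881). Endocrine markers summed to 5210, 3199 and 3415 CPM in the controls, against 3556, 3262 and 3497 CPM in mutants. Of these, Nkx2-2 was the 1 called of 11 tested, lower in mutants (-1.64, edgeR adjusted p = 0.00381). Neutrophil precursor markers summed to 47.1, 91.8 and 22.6 CPM in the controls, against 25.5, 31.9 and 21.5 CPM in mutants, highest in control 2. Endothelial markers varied little, from 312 to 324 CPM in controls and from 313 to 351 CPM in mutants. Fibroblast markers summed to 3799, 5173 and 5945 CPM in the controls, against 5560, 4217 and 5170 CPM in mutants. Their groups overlapped, and 0 of the 12 tested were called. The part of these cells in the replication level of mutant 2, in the mitotic level of control 2 and in the mitotic differences between the groups was not tested. Without control 2 and mutant 2 the median difference of the mitotic genes was 0.47 and that of the replication genes 0.14. Without control 1, the library at 0 CPM of Ddx3y, the mitotic median was 0.22 with 23 of 25 positive.

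**Figure D5:**
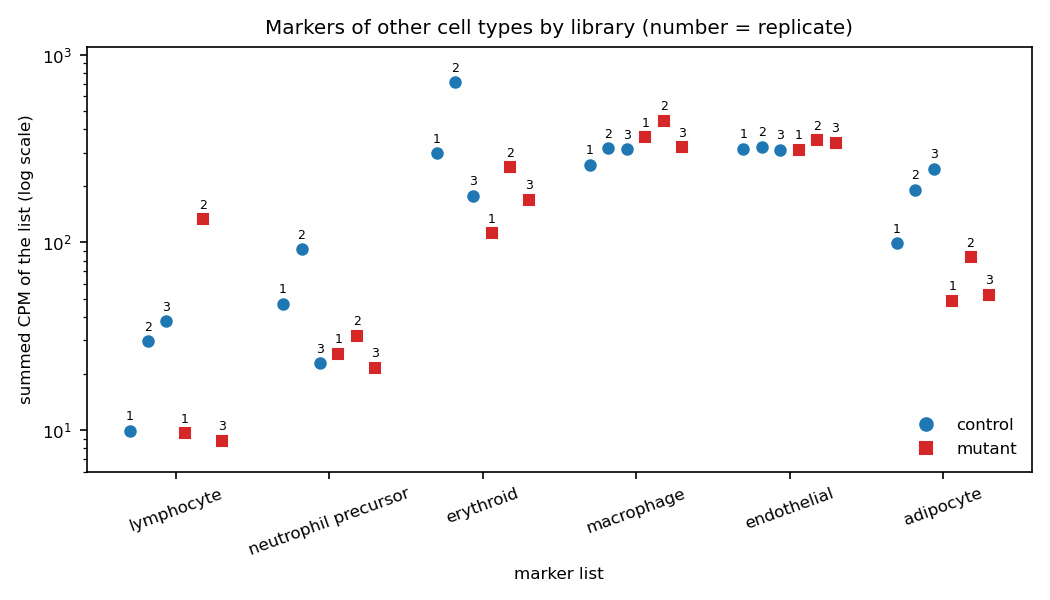
Summed CPM (y axis, log scale) of marker lists of 6 other cell types (x axis) in each library, circles for controls and squares for mutants, each with its replicate number. Lymphocyte markers of mutant 2 stand at 133 CPM above the other 5 libraries, and erythroid markers of control 2 at 713 CPM.

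D cyclins and their kinases set the entry into the cycle, and Cdk4 had the highest level per length of the 51 genes, 49.2 CPM per kilobase of exon in controls. Of its exon bases 19.7% overlap Tspan31 on the opposite strand, and 23.4% of those of Ccnd1 overlap LTO1. Ccnd2, known for its part in beta cell division, was at 94.9, 102 and 106 CPM in the controls, against 112, 102 and 116 CPM in mutants (0.12 ± 0.10, 95% interval -0.10 to 0.34, edgeR adjusted p = 0.693). Ccnd1 was at 46.2, 73.6 and 63.8 CPM in the controls, against 63.2, 43.0 and 62.3 CPM in mutants (-0.13 ± 0.19, 95% interval -0.54 to 0.29, edgeR adjusted p = 0.852). Both had groups that overlapped, and Ccnd1 was lowest in mutant 2. Ccnd3 was at 39.3, 44.2 and 45.1 CPM in the controls, against 39.1, 38.7 and 39.2 CPM in mutants, all mutants lying below all controls by a narrow gap (-0.14 ± 0.10, 95% interval -0.35 to 0.07, edgeR adjusted p = 0.615). Cdk4 was at 167, 159 and 154 CPM in the controls, against 156, 130 and 147 CPM in mutants (-0.15 ± 0.11, 95% interval -0.38 to 0.09, edgeR adjusted p = 0.632). Cdk6 had the lowest level per length of the 51, 0.310 CPM per kilobase in controls, and ranged from 3.45 to 5.10 CPM over all libraries. The negative signs of Ccnd1, Ccnd3 and Cdk4 turned positive with library totals as the scaling, at 0.03, 0.02 and 0.02, below the 0.17 of all genes.

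The CDK inhibitors Cdkn1b, Cdkn1c and Cdkn2c encode p27, p57 and p18. Cdkn1c, an imprinted gene and the one with the highest level per length of the 3 (24.1 CPM per kilobase in controls), was at 46.2, 51.6 and 49.6 CPM in the controls, against 49.7, 45.2 and 46.3 CPM in mutants (-0.06 ± 0.09, 95% interval -0.28 to 0.15, edgeR adjusted p = 0.854). Of its exon bases, 30.7% overlap Gm44732 on the opposite strand. Cdkn1b was at 18.2, 20.2 and 18.0 CPM in the controls, against 16.1, 16.8 and 22.6 CPM in mutants (-0.02 ± 0.15, 95% interval -0.36 to 0.31, edgeR adjusted p = 0.976). Cdkn2c was at 6.01, 6.73 and 5.18 CPM in the controls, against 5.61, 5.45 and 5.68 CPM in mutants (-0.09 ± 0.18, 95% interval -0.50 to 0.31, edgeR adjusted p = 0.899). The groups overlapped in all 3, and the intervals hold both signs. All 3 signs turned positive with library totals, at 0.10, 0.14 and 0.07.

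Myc, a transcription factor of growth and cell cycle entry, was at 29.1, 28.2 and 27.8 CPM in the controls, against 28.8, 34.2 and 25.4 CPM in mutants (0.05 ± 0.12, 95% interval -0.22 to 0.32, edgeR adjusted p = 0.919). The 3 controls lay within the spread of the mutants. Mycn, its paralog of embryonic tissues, was at 4.05, 3.31 and 4.22 CPM in the controls, against 3.04, 2.43 and 4.19 CPM in mutants (-0.25 ± 0.27, 95% interval -0.85 to 0.34, edgeR adjusted p = 0.776). The row Mycl1, outside the 51 genes, held 1.5, 2.21 and 2.78 CPM in the controls, against 0.856, 1.62 and 1.2 CPM in mutants, with a difference of -0.86 ± 0.37 (edgeR adjusted p = 0.364). These levels correspond to 9 to 29 counts per library, so counting limits the precision there.

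Among 39 other regulators of the cycle, namely retinoblastoma family, E2F, checkpoint, anaphase-promoting complex, CDK inhibitor and Myc partner genes, 37 were tested and none was called by edgeR. Of these, 10 had a positive and 27 a negative difference, and the median was -0.06. With library totals 26 were positive and 11 negative with a median of 0.10. At an unadjusted p under 0.05, 2 of the 37 were lower and none higher, against 7.36% and 5.41% of all genes tested. Cdc25a, the phosphatase that activates Cdk2, was at 37.4, 30.7 and 32.2 CPM in the controls, against 29.7, 24.8 and 25.2 CPM in mutants (-0.33 ± 0.12, edgeR adjusted p = 0.267). Lin37, a subunit of the complex that represses cell cycle genes in resting cells, was at 17.6, 19.2 and 21.1 CPM in the controls, against 16.5, 12.3 and 15.5 CPM in mutants (-0.39 ± 0.14, edgeR adjusted p = 0.273). All mutants lay below all controls in both, and neither passed the test.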

How the data were processed

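RNA from 6 pancreas samples was sequenced, and the authors deposited 1 table of whole-number gene counts per library. The submitters' processing notes name STAR, HTSeq 0.6.1p1, cutadapt 1.13, DESeq2 and the build mm10, with no role or order. The annotation, strand setting and treatment of multi-mapped reads were not given in the sources used here. Groups and replicate numbers came from the sample titles.

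The counts were tested with edgeR 4.0.16 in R 4.3.3 (quasi-likelihood test, TMM scaling, filterByExpr, no covariate), with Benjamini-Hochberg adjustment over all 13017 genes tested. Intervals cover 95%. DESeq2 1.42.0 and limma-voom (limma 3.58.1) were alternatives, beside other scalings, filters and libraries left out. Mean log2 CPM used a prior count of 2. The fit was checked on simulated counts. Chi-square statistics within groups lay between 5.83 and 20.5 per degree of freedom, so no library was a repeat of another. Gene positions, exon lengths and overlaps came from GENCODE on GRCm38, where all 51 genes matched 1 gene.

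The members and the lists were chosen with earlier results of these data known. Named were Prox1, all D cyclins, CDK inhibitors and Myc genes, in each other role the called genes, the 3 with the smallest p and the 2 with the highest mean CPM, and in each list of other pathway genes the called ones or the 2 with the smallest p; others were picked with their values known.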

Additional observations from a re-analysis of the deposited data

How the results depend on the processing

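The number of the 51 genes called by edgeR was 0 under all alternatives but 1: with library totals alone as the scaling it was 1, Kif20a (0.62, adjusted p = 0.0466). That scaling moved the median of all genes to 0.17 and the share of called genes that were higher from 26.5% to 59.4%, and it called Orc2 (0.62, adjusted p = 0.0424), Shcbp1 (0.65, adjusted p = 0.0430) and Hmmr in the other pathway genes. Among the genes named by rule it turned Ccnd1 (0.0287), Ccnd3 (0.0245), Cdk2 (0.0160), Cdk4 (0.0182), Cdkn1b (0.137), Cdkn1c (0.101) and Cdkn2c (0.0704) positive. Totals without acinar markers and the 50 most abundant genes turned Cdkn1b positive (0.0049) among them. Over all members, library totals left 3 of the 10 replication genes negative, against 8 with TMM. All 25 mitotic genes were positive under both of these scalings, against 24 with TMM. The number of genes called in all ranged from 125 (without control 2) to 301 (without mutant 2) with 1 library left out, and was 140 without control 3, 139 without mutant 1, 178 without mutant 3 and 173 without control 2 and mutant 2. The replication median ranged from -0.27 to 0.12 and the mitotic median from 0.14 to 0.40 with 1 library left out. Without control 2 and mutant 2, chosen as the libraries highest in erythroid and lymphocyte markers, the mitotic median was 0.47.

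With 1 library, or control 2 and mutant 2, left out, the sign of 9 of the genes named by rule turned, and the cause was not tested. Other members, of which some also turned, enter only the counts of signs given below. The log2 fold change ranged from -0.29 to 0.18 in Ccnd1, -0.25 to 0.0076 in Cdk2, -0.20 to 0.0931 in Cdkn1b, -0.19 to 0.0234 in Cdkn2c, -0.46 to 0.0054 in Mcm6, -0.0231 to 0.34 in Mki67, -0.0698 to 0.15 in Myc, -0.0651 to 0.23 in Rrm1 and -0.45 to 0.27 in Rrm2. Between 20 and 25 of the 25 mitotic genes were positive under the alternatives, and between 1 and 10 of the 10 replication genes negative, fewest without control 2 and mutant 2. Deviations of same-numbered control and mutant libraries correlated at 0.08, 0.03 and -0.07, and those of other numbers between -0.11 and 0.11. The numbers thus gave no sign of a pairing, but so few values cannot exclude a shared litter or day. With the replicate block 241 genes, none of the 51, were called, and Hmmr had an adjusted p of 0.0908 under that pairing. The alternatives without genes that share sequence or antisense exons were added after the data were seen. With 3 libraries per group the 95% intervals of all 51 genes span over 0.4 on the log2 scale, so small differences were not detectable.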

Other observations

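Some further pathway genes, chosen after their values were seen, had groups that did not overlap and did not pass the test. Cdt1, Tk1, Pkmyt1 and Wee1, given here, were lower in mutants. Among the other replication, mitotic and regulator genes tested, all mutants lay below all controls in 2 of 43, 1 of 71 and 4 of 37. All lay above in 2, 7 and 3 of them. The shares of all genes tested were 9.86% below and 9.13% above. Cdt1, the factor that loads the helicase, was at 11.1, 8.61 and 8.06 CPM in the controls, against 7.99, 5.21 and 6.38 CPM in mutants (edgeR adjusted p = 0.349). Tk1, the thymidine kinase of S phase, was at 14, 15.0 and 10.94 CPM in the controls, against 10.1, 7.88 and 10.87 CPM in mutants (edgeR adjusted p = 0.295). Pkmyt1 and Wee1, the kinases that hold Cdk1 inactive, differed by -0.41 and -0.15. Wee1 ranged from 23.2 to 24.1 CPM in controls and from 21.2 to 21.6 CPM in mutants. In mutant 2 the lowest replication genes outside the 51 were Pole, a subunit of the leading-strand polymerase, at 8.92 CPM against 18.3 to 26.0 CPM elsewhere, and Lig1, the ligase that joins Okazaki fragments, at 14.6 CPM against 24.2 to 37.0 CPM.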
